A study of Bos taurus with 8 samples.

Results

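The 9 genes described here, MDM2, MDM4, CDKN1A, TP53INP1, FDXR, BTG1, SESN2, CCNG1 and GADD45A, are regulators or transcriptional targets of p53, and all 9 are among the 16606 genes of the deposited table. They were listed by name for the question whether signalling from a disturbed ribosome through MDM2 to p53 shows in embryos edited in RPL12, a gene of the large ribosomal subunit. The list was drawn up with earlier results in view: TP53INP1 and FDXR were selected on their measured CPM difference between edited and control libraries at the 4-cell stage, and BTG1 on that at the 8-cell stage. Bovine embryos were sampled at the 4-cell or the 8-cell stage, either as controls or after injection of the zygote with PEmax, a prime editor in which a Cas9 nickase is fused to a reverse transcriptase, together with a guide RNA. The edit is labelled A148G, with no statement of where the position is counted from. Each of the 4 groups (control and edited, at both stages) has 2 libraries, and the protocol gives 5 embryos per stage and group without saying whether each library is a pool of its own. All embryos were fertilised in vitro from abattoir oocytes. The labels call the edited samples base-edited in their titles and prime-edited in the protocol, and they do not say whether controls were injected or what share of alleles carried the edit. Nothing says that the libraries of a group come from separate fertilisations, so the p-values measure only the spread between these libraries, which may be technical.

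The transcription factor p53 is held low in unstressed cells by MDM2, a ubiquitin ligase that marks it for destruction, and by the related protein MDM4, which covers its activation domain. When assembly of the ribosome is disturbed, free RPL5 and RPL11 bind MDM2 and block it, p53 protein accumulates, and target genes such as CDKN1A and MDM2 itself are transcribed. Cleavage-stage embryos run largely on transcripts stored in the oocyte, and in cattle the embryo's own genome becomes broadly active from about the 8-cell stage. These libraries measure polyadenylated transcripts and hold no measure of p53 protein.

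Levels are in CPM, reads per 1000000 reads. Between 33527531 and 35122409 reads per library were assigned to genes, and 3 reads correspond to at most 0.0899 CPM. All 9 genes passed the filter for testing, a mean of at least 1 CPM over the 8 libraries, and the fewest reads of any of them in a library were the 63 of FDXR in the second 4-cell edited library. A log2 ratio, edited over control, is a difference of log2(CPM + 1) between group means, fitted by limma over all 12129 tested genes, and a gene is said to have risen or fallen where the p-value adjusted over those genes was under 0.05. Values of TP53INP1, FDXR and BTG1 in the comparisons they were selected on, or in others that use the same libraries, are descriptions without a p-value.

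RPL12 itself stood at 159 and 174 CPM in the 4-cell controls and at 27.5 and 33.6 CPM in the 4-cell edited libraries. At the 8-cell stage it stood at 96.3 and 97.6 CPM in controls and at 14.1 and 11.9 CPM in edited libraries. Edited libraries lay below controls at both stages. An A148G edit sets no direction for the transcript level, so this is no check of the labels. The log2 ratio of RPL12 at the 8-cell stage was -2.81. Of ribosomal protein genes that were not the target, RPS26 (-2.73) and RPL26 (-2.54) lay close to it. Both are among the falls with the smallest p-values in the ribosomal stress list given below. The median of that list was -0.81, so most of its genes fell less than RPL12.

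The embryo identity of the libraries was checked with 18 oocyte and embryo markers, of which 16 were in the table and none was at 0 reads in both libraries of any group. Their summed level was 20294 and 26841 CPM in the 4-cell controls and 50046 and 58440 CPM in the 4-cell edited libraries. At the 8-cell stage it was 51145 and 38212 CPM in controls and 53597 and 56894 CPM in edited libraries. Of the 16, 6 rose and 1 (H1-8) fell at the 4-cell stage, beside 18.9% higher and 25.8% lower among all tested genes. At the 8-cell stage 2 rose and none fell, beside 1.08% and 14.5%. All 16 log2 ratios were above 0 there, and 12 at the 4-cell stage. BTG4 alone made up 12015 and 14925 CPM of the sums in the 4-cell controls and 28841 and 37563 CPM of those in the 4-cell edited libraries. Markers of other cell types were summed in the same way. The 18 cumulus and granulosa markers, those of the somatic cells that surround the oocyte, summed to 1702 and 1347 CPM in the 4-cell controls, 567 and 896 CPM in the 8-cell controls, 447 and 482 CPM in the 4-cell edited libraries, and 465 and 452 CPM in the 8-cell edited libraries. HAS2, STAR and SERPINE2 made up 132, 127 and 117 CPM of the sum in the first 4-cell edited library. Of the 16 cumulus and granulosa markers tested, 10 fell and 2 (HAS2 and GREM1) rose at the 4-cell stage, beside 25.8% lower and 18.9% higher among all tested genes. At the 8-cell stage 4 fell and none rose, beside 14.5% lower and 1.08% higher. AMHR2 was at 0 reads in both 4-cell edited libraries. The 9 epithelial markers in the table summed to 396 and 446 CPM in the 4-cell controls and 68.3 and 65.6 CPM in the 4-cell edited libraries. At the 8-cell stage they summed to 119 and 192 CPM in controls and 72.8 and 57.8 CPM in edited libraries. OVGP1, a marker of the oviduct, was at 0 reads outside the 4-cell controls. Of the 6 tested, 5 fell at the 4-cell stage and 4 at the 8-cell stage, and none rose at either, beside the same shares. The 10 stromal markers summed to 3154 and 6605 CPM in the 4-cell controls, 2740 to 3297 CPM in the 8-cell controls and 210 to 2065 CPM in the 4 edited libraries. LUM alone made up 2878 and 5965 CPM of the sums in the 4-cell controls. Of the 9 tested, 5 fell and 1 (FBN1) rose at the 4-cell stage, and 6 fell and none rose at the 8-cell stage, beside the shares just given. COL3A1 was at 0 reads in both 8-cell edited libraries. The 7 leukocyte markers in the table summed to 26.8 to 50.0 CPM, which overlapped between conditions at the 4-cell stage and were higher in edited libraries at the 8-cell stage (42.7 and 50.0 against 37.2 and 33.1 CPM). The part of these other transcripts in the differences between edited and control embryos was not tested, and fewer cells of a type and less RNA per cell cannot be told apart in libraries made from several embryos.

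**Figure D1:**
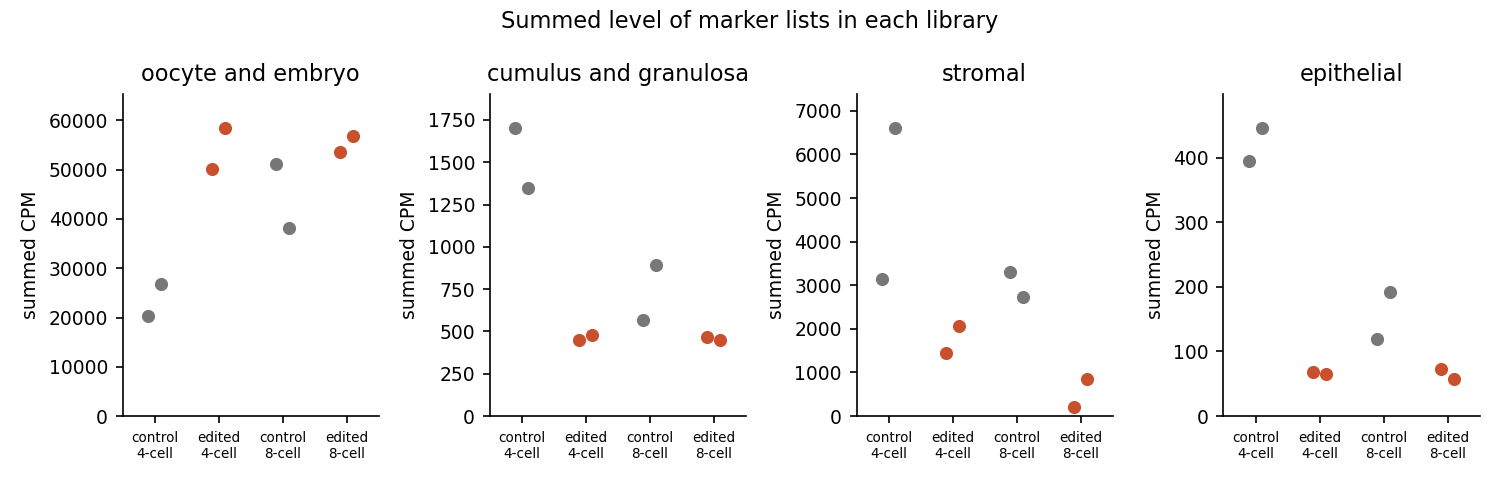
Summed CPM of 4 marker lists (panels) in each library (points), with control libraries in grey and edited libraries in red. The 4-cell controls are the lowest in oocyte and embryo markers, at 20294 and 26841 CPM, and the highest in cumulus and granulosa markers, at 1347 and 1702 CPM. BTG4 makes up 12015 and 14925 CPM of the oocyte and embryo sums in the 4-cell controls.

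At the 4-cell stage MDM4, CCNG1 and TP53INP1 were higher in edited embryos and FDXR was lower, while MDM2, CDKN1A, SESN2, GADD45A and BTG1 did not pass the test. In 8-cell embryos FDXR and BTG1 were lower and none of the 9 was higher. The count of 4 among 9 at the 4-cell stage stands beside 44.7% of all tested genes (18.9% higher, 25.8% lower), and the count of 2 among 9 at the 8-cell stage beside 15.6% (1.08% higher, 14.5% lower). Both counts include the genes selected on these differences, so nothing is read from them. Without the second 8-cell control library, the counts at the 8-cell stage were 1 of the 9 and 1021 of all tested genes in place of 1895. Averaged over both stages 3 of the 9 were called higher and 3 lower, beside 44.8% of all tested genes (17.6% higher, 27.2% lower). The editing effect was called different between the stages for 1 of the 9, TP53INP1, beside 3.96% (1.95% with a higher and 2% with a lower effect at the 8-cell stage), and edgeR called none of the 9. These counts too rest on libraries in which TP53INP1, FDXR and BTG1 were selected, so nothing is read from them either. Of the 9 genes none was higher at the 8-cell stage at an unadjusted p-value under 0.05 by limma, and edgeR and DESeq2 on reads recovered from the CPM each called 0 higher. The median log2 ratio of the 9 was 0.35 in 4-cell and 0.16 in 8-cell embryos, where the medians over all tested genes were -0.02 and 0.00. The medians of the 9 include the selected genes as well, so nothing is read from them.

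**Figure D2:**
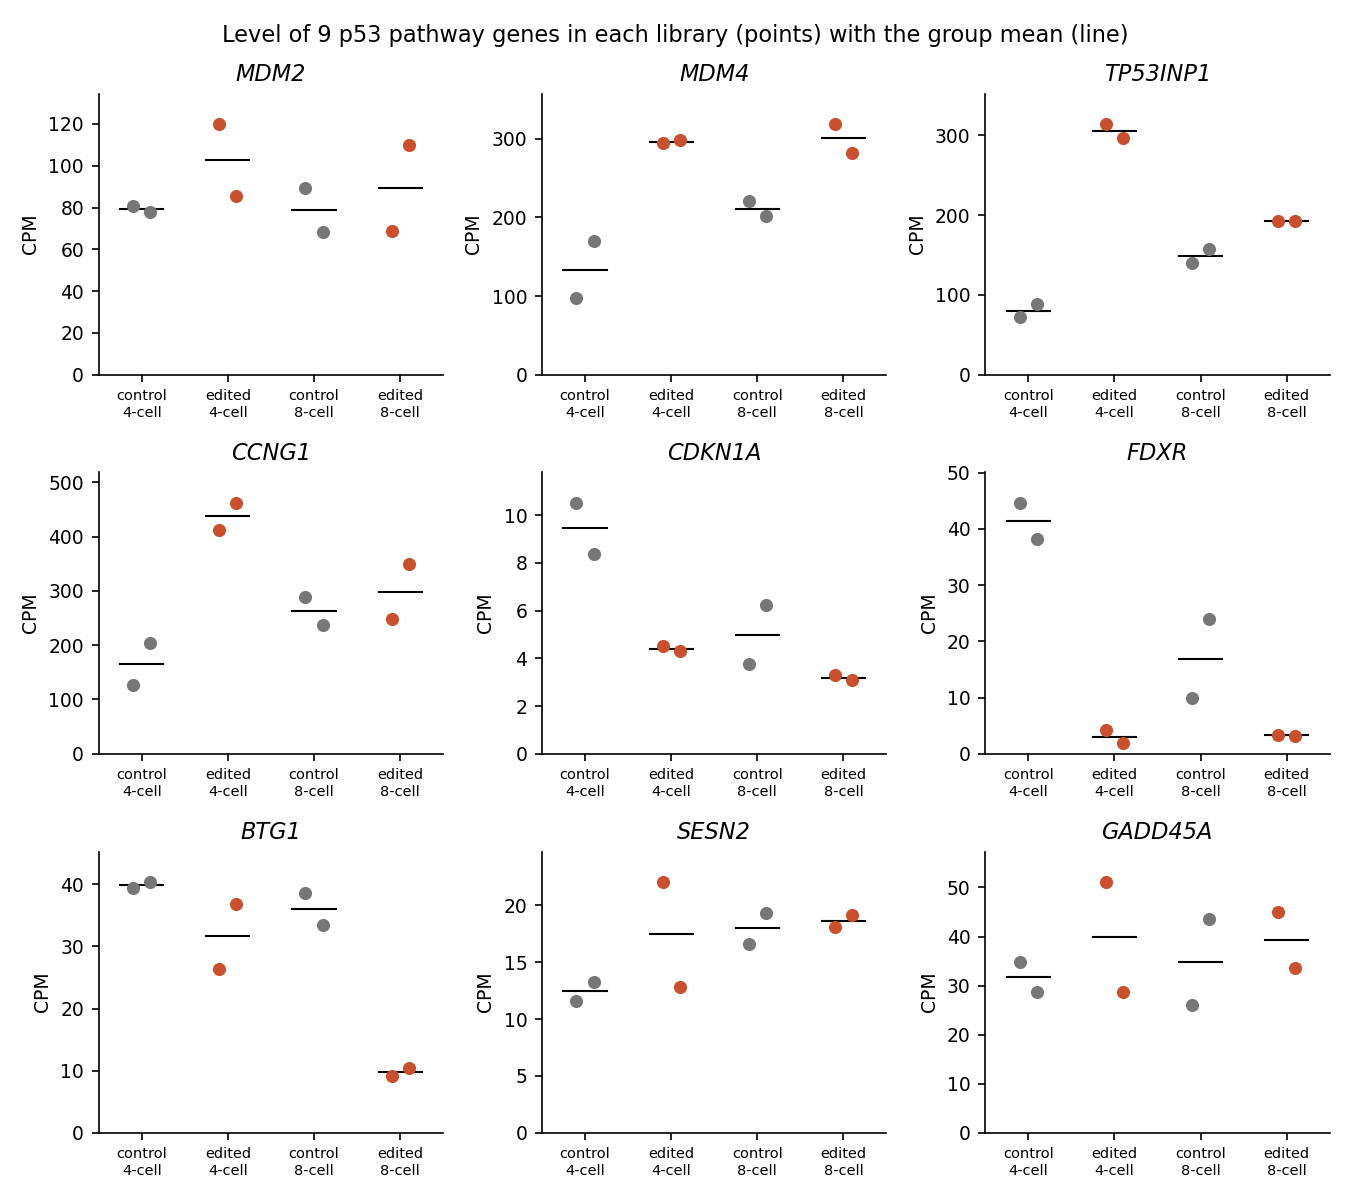
CPM of each of the 9 genes (panels, each with its own axis from 0) in the 8 libraries (points, control in grey and edited in red), with the group mean as a line. The 4-cell controls are the lowest group for MDM4, TP53INP1 and CCNG1 and the highest for FDXR, and the edited 8-cell libraries of BTG1, at 9.08 and 10.5 CPM, lie below its other 6.

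MDM2 is both the brake on p53 and one of its classic targets. It stood at 80.7 and 77.9 CPM in the 4-cell controls and at 120 and 85.4 CPM in the 4-cell edited libraries. In the 8-cell groups it stood at 89.2 and 68.1 CPM in controls and at 68.8 and 110 CPM in edited libraries. Both 4-cell edited libraries lay above both of their controls, the lower of them by little, whereas the 8-cell groups overlapped. The log2 ratio was 0.35 at the 4-cell stage (SE 0.272, limma adjusted p = 0.316), with a 95% interval from -0.23 to 0.93. Its 8-cell value was 0.16 (SE 0.272, limma adjusted p = 0.755), with an interval from -0.42 to 0.73. A rise of more than 1.90-fold at the 4-cell and of more than 1.66-fold at the 8-cell stage lies outside these intervals, and a smaller rise does not.

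MDM4, which blocks p53 without degrading it on its own, stood at 97.0 and 170 CPM in the 4-cell controls and at 294 and 299 CPM in the 4-cell edited libraries. It stood at 221 and 201 CPM in the 8-cell controls and at 319 and 282 CPM in the 8-cell edited libraries. Edited libraries lay above controls at both stages, and the 4-cell controls were the lowest group. MDM4 rose at the 4-cell stage by a log2 ratio of 1.20 (SE 0.249, limma adjusted p = 0.00108). Without the first 4-cell control library, the one at 97.0 CPM, this value was 0.80 (limma adjusted p = 0.0138). Its 8-cell value was 0.51 (SE 0.249, limma adjusted p = 0.207, 95% interval -0.02 to 1.03). The difference between these effects, -0.69 (SE 0.352), did not pass (limma adjusted p = 0.248). Averaged over both stages MDM4 rose by 0.85 (SE 0.176, limma adjusted p = 0.000995).

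CCNG1, the gene of cyclin G1, is a p53 target whose product brings a phosphatase to MDM2. Its levels were 127 and 204 CPM in the 4-cell controls and 413 and 462 CPM in the 4-cell edited libraries. In the 8-cell controls they were 289 and 238 CPM, and in the 8-cell edited libraries 248 and 349 CPM. The 4-cell groups were well apart and the 8-cell groups overlapped. CCNG1 rose at the 4-cell stage by a log2 ratio of 1.43 (SE 0.254, limma adjusted p = 0.000311), and at the 8-cell stage the value was 0.17 (SE 0.254, limma adjusted p = 0.722). The difference between the stages was -1.27 (SE 0.359) and did not pass (limma adjusted p = 0.0583).

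CDKN1A encodes p21, the inhibitor of cyclin-dependent kinases through which p53 halts the cell cycle. It stood at 10.5 and 8.36 CPM in the 4-cell controls and at 4.51 and 4.30 CPM in the 4-cell edited libraries. Among 8-cell libraries it stood at 3.75 and 6.24 CPM in controls and at 3.29 and 3.09 CPM in edited libraries. Each edited library lay below both controls of its stage. The log2 ratio was -0.94 at the 4-cell stage (SE 0.373, limma adjusted p = 0.0504) and -0.49 at the 8-cell stage (SE 0.373, limma adjusted p = 0.443). The 95% interval at the 4-cell stage ran from -1.73 to -0.15, and that at the 8-cell stage from -1.28 to 0.30. Averaged over both stages CDKN1A fell by 0.71 on the log2 scale (SE 0.264, limma adjusted p = 0.0373). That call was lost with edgeR (adjusted p = 0.0508), with no filter on low values (limma adjusted p = 0.0693), with the replicate number as a block (limma adjusted p = 0.0508) and without any single library other than the first 8-cell control (limma adjusted p up to 0.153).

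BTG1 belongs to the antiproliferative BTG and TOB family, whose members bind the CCR4-NOT complex that shortens poly(A) tails. It stood at 39.4 and 40.4 CPM in the 4-cell controls, 26.4 and 36.8 CPM in the 4-cell edited libraries, 38.6 and 33.4 CPM in the 8-cell controls, and 9.08 and 10.5 CPM in the 8-cell edited libraries. The edited 8-cell libraries thus lay below the other 6, which ranged from 26.4 to 40.4 CPM. In the 8-cell comparison it was selected on, its mean was 3.68-fold lower in edited embryos. In 4-cell embryos BTG1 did not pass the test (log2 ratio -0.35, SE 0.284, limma adjusted p = 0.345, 95% interval -0.95 to 0.26). Within edited embryos its mean was 3.23-fold lower in 8-cell than in 4-cell libraries, and within controls 1.11-fold lower.

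GADD45A, a growth arrest gene induced by DNA damage, stood at 34.9 and 28.7 CPM in the 4-cell controls and at 51.2 and 28.7 CPM in the 4-cell edited libraries. Its 8-cell levels were 26.1 and 43.6 CPM in controls and 44.9 and 33.6 CPM in edited libraries. No group stood apart from another. The log2 ratios were 0.27 at the 4-cell stage (SE 0.328, limma adjusted p = 0.532, 95% interval -0.42 to 0.97) and 0.20 at the 8-cell stage (SE 0.328, limma adjusted p = 0.747, 95% interval -0.50 to 0.89).

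TP53INP1 encodes a nuclear stress protein that is induced by p53 and acts in autophagy and cell death. It stood at 72.0 and 88.3 CPM in the 4-cell controls, 315 and 296 CPM in the 4-cell edited libraries, 140 and 158 CPM in the 8-cell controls, and 193 and 193 CPM in the 8-cell edited libraries. The group means thus ran from 80.2 CPM in 4-cell controls through 149 and 193 CPM at the 8-cell stage to 305 CPM in 4-cell edited embryos, with no overlap between neighbours in this order. In the 4-cell comparison it was selected on, the mean was 3.81-fold higher in edited embryos. The 8-cell groups lay closer together, with a mean 1.30-fold higher in edited embryos and a log2 ratio of 0.38 that did not pass (SE 0.213, limma adjusted p = 0.281, 95% interval -0.08 to 0.83). From the 4-cell to the 8-cell stage the mean went up 1.85-fold in controls and down 1.58-fold in edited embryos.

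SESN2, a sestrin that senses leucine and restrains the growth kinase mTORC1, stood at 11.6 and 13.3 CPM in the 4-cell controls and at 22.1 and 12.8 CPM in the 4-cell edited libraries. Its 8-cell levels were 16.6 and 19.3 CPM in controls and 18.1 and 19.1 CPM in edited libraries. Edited and control libraries overlapped at both stages, and only the first 4-cell edited library stood above its stage's controls by a clear margin. The log2 ratios were 0.41 (SE 0.327, limma adjusted p = 0.325, 95% interval -0.28 to 1.11) and 0.05 (SE 0.327, limma adjusted p = 0.940, 95% interval -0.64 to 0.75).

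**Figure D3:**
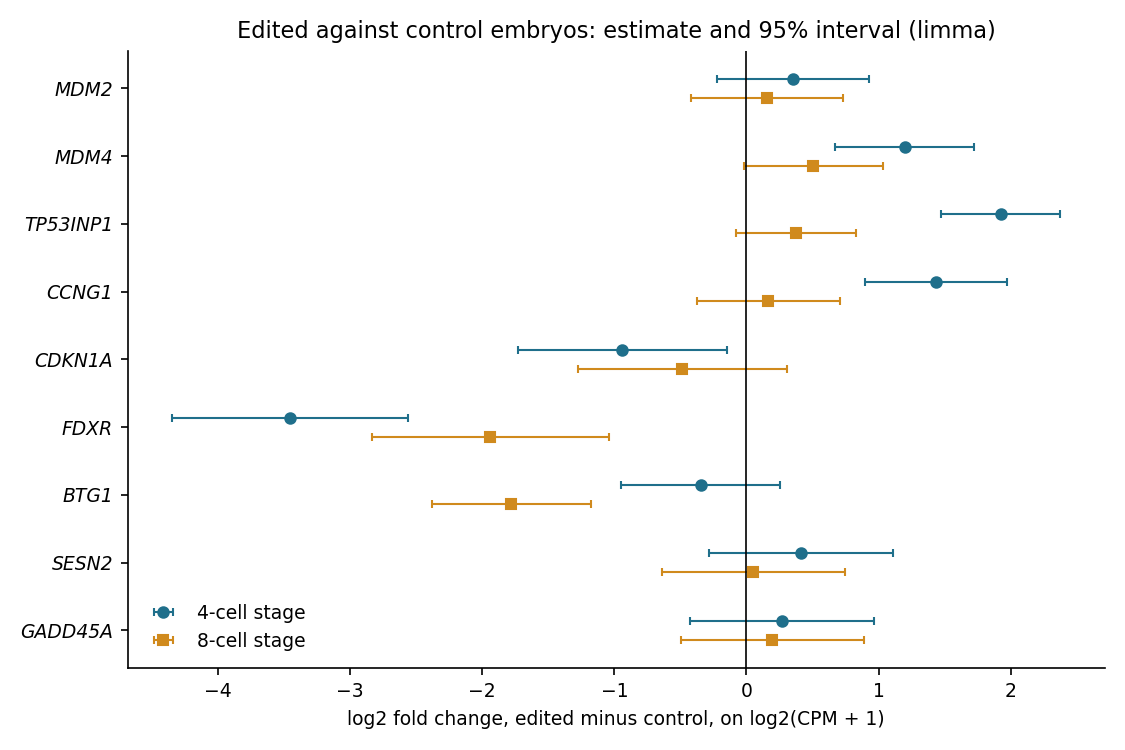
Log2 ratio of each gene in edited against control embryos at the 4-cell (circles) and 8-cell stage (squares) with the 95% interval from limma. The intervals of MDM2, SESN2 and GADD45A include 0 at both stages, and that of CCNG1 lies above 0 at the 4-cell stage (estimate 1.43) and includes 0 at the 8-cell stage (estimate 0.17).

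FDXR encodes ferredoxin reductase, a mitochondrial enzyme that passes electrons from NADPH to ferredoxins. It is a p53 target, and it also serves steroid synthesis, where its electrons reach CYP11A1, the enzyme that cleaves the side chain of cholesterol. FDXR stood at 44.7 and 38.1 CPM in the 4-cell controls, 4.25 and 1.84 CPM in the 4-cell edited libraries, 9.93 and 23.9 CPM in the 8-cell controls, and 3.38 and 3.23 CPM in the 8-cell edited libraries. All 4 edited libraries lay below all 4 controls. In the 4-cell comparison it was selected on, the mean was 13.6-fold lower in edited embryos. FDXR fell at the 8-cell stage by 1.94 on the log2 scale (SE 0.422, limma adjusted p = 0.00394). Without the second 8-cell control library, the one at 23.9 CPM, the log2 ratio was -1.34 and did not pass (limma adjusted p = 0.0952).

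The granulosa markers held 4 genes of steroid synthesis, named here after their values were seen, and they did not vary alike. CYP11A1 and HSD3B1 were highest in the 4-cell controls, next in the 8-cell controls and lowest in edited embryos, like FDXR, and STAR and CYP19A1 were not. CYP11A1 stood at 227 and 201 CPM in the 4-cell controls, 3.33 and 14.5 CPM in the 4-cell edited libraries, 29.1 and 133 CPM in the 8-cell controls, and 12.7 and 4.97 CPM in the 8-cell edited libraries. HSD3B1, which makes progesterone from pregnenolone, stood at 283 and 283, 5.87 and 17.8, 40.7 and 176, and 8.31 and 3.09 CPM in the same libraries. CYP11A1 and HSD3B1 fell at both stages, with limma adjusted p-values from 1.03e-05 to 0.00361. In FDXR, CYP11A1 and HSD3B1 alike the second 8-cell control library was the higher of that group. This order was not particular to them: RPS15 (162 and 313 CPM) and OTUB1 (201 and 271 CPM) had it too, by smaller ratios, while MDM4 (221 and 201 CPM) did not. In the 4-cell edited libraries the first was the higher for FDXR and the second for CYP11A1 and HSD3B1. STAR, which brings cholesterol into the mitochondrion, stood at 159 and 193 CPM in the 4-cell controls, 127 and 126 CPM in the 4-cell edited libraries, 154 and 143 CPM in the 8-cell controls, and 174 and 213 CPM in the 8-cell edited libraries. CYP19A1, the aromatase that makes oestrogens, had means of 1.36, 1.95, 1.90 and 2.03 CPM in the same groups. Neither passed at either stage (limma adjusted p = 0.0952 and 0.290 for STAR, 0.497 and 0.872 for CYP19A1). FDX1, the ferredoxin that FDXR serves, ranged from 131 to 232 CPM and did not pass at either stage (log2 ratio -0.15 and 0.32, SE 0.266 at each, limma adjusted p = 0.678 and 0.486). The part of granulosa transcripts in the level of FDXR was not tested.

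**Figure D4:**
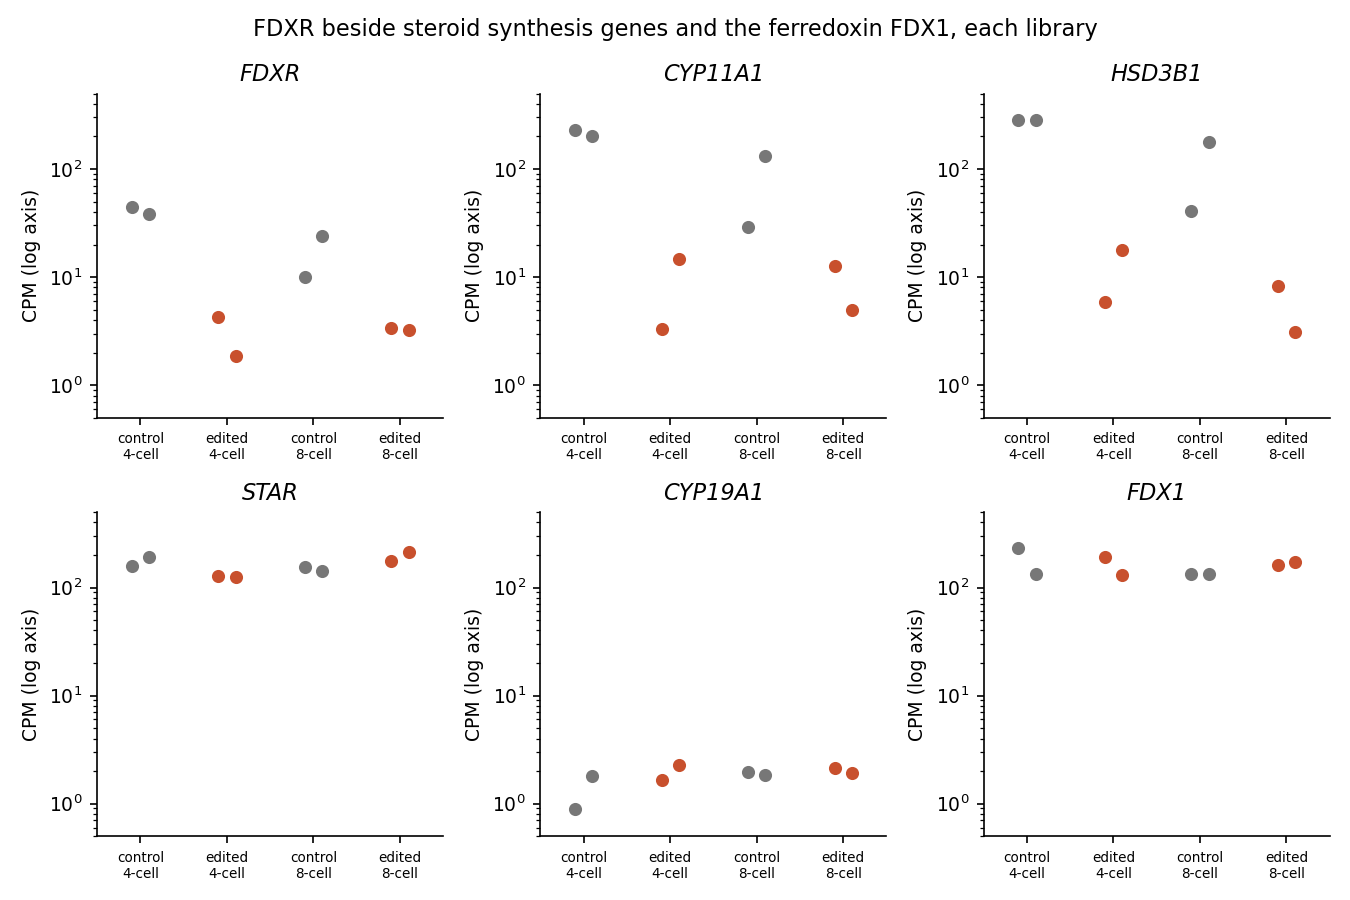
CPM on a log axis of FDXR, of the steroid synthesis genes CYP11A1, HSD3B1, STAR and CYP19A1 and of the ferredoxin FDX1 in each library (points, control in grey and edited in red). The second 8-cell control library is higher than the first for FDXR (23.9 against 9.93 CPM), CYP11A1 (133 against 29.1 CPM) and HSD3B1 (176 against 40.7 CPM). For STAR and CYP19A1 it is the lower, and for FDX1 both stand at nearly the same level (134 against 133 CPM). FDX1 stays between 131 and 232 CPM over all libraries.

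Stage was compared within each condition for the same genes, in the same libraries as the comparisons of edited with control embryos. TP53INP1, FDXR and BTG1 were selected on differences measured in these libraries, so nothing is read from the counts of called genes. Among controls 1 of the 9 genes was called higher at the 8-cell stage (TP53INP1) and none lower, beside 9.02% of all tested genes (2.75% higher, 6.27% lower). Of the 9, 2 had an unadjusted limma p-value under 0.05 towards lower levels, edgeR called 0 lower and DESeq2 1. MDM4 and CCNG1 stood higher at the 8-cell stage by log2 differences of 0.71 (SE 0.249) and 0.70 (SE 0.254) and did not pass (limma adjusted p = 0.0766 and 0.0863). In edited embryos 1 of the 9 was called lower (BTG1) and none higher, beside 5.18% (1.45% higher, 3.73% lower). There, no gene had an unadjusted limma p-value under 0.05 towards higher levels, and edgeR and DESeq2 called 0 higher. MDM4 differed between the stages in edited embryos by 0.02 (SE 0.249, limma adjusted p = 0.979, 95% interval -0.51 to 0.54).

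Profiles across the 8 libraries were compared by the root mean square difference of log2(CPM + 1) after each gene's mean was subtracted, which is small when genes vary alike and is a description only. Of the 9 genes, SESN2 and GADD45A were closest (0.26), followed by MDM4 and CCNG1 (0.27), TP53INP1 and CCNG1 (0.28), MDM2 and SESN2 (0.32) and MDM4 and TP53INP1 (0.33). FDXR was farthest from the rest, up to 2.13 from TP53INP1. The spread of a gene about its own mean was 0.27 for MDM2, 0.29 for SESN2 and 0.32 for GADD45A, against 1.48 for FDXR, and genes that vary little, such as SESN2 and GADD45A, are close by this measure. Among the 7436 tested genes that averaged 10 CPM or more, the profile nearest to that of MDM4 was NQO1 (0.05), nearest to CCNG1 was THSD7A (0.07), nearest to TP53INP1 was CCDC146 (0.11) and nearest to BTG1 was QRSL1 (0.11). The 3 nearest to FDXR were NDUFS8, ISOC2 and ETFB (0.17 to 0.20), genes of mitochondrial proteins in the case of NDUFS8, a subunit of respiratory complex I, and ETFB, a subunit of the electron transfer flavoprotein.

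Of 51 other p53 targets listed, 46 were in the table and 37 were tested. In 4-cell embryos 13 rose and 10 fell, beside 18.9% higher and 25.8% lower among all tested genes, with a median log2 ratio of 0.35 against -0.02. Leaving out the first 4-cell control library left 12 called, leaving out the first or second 4-cell edited library 12 and 14, and dropping the filter on low values 15. In 8-cell embryos 1 rose and 5 fell, beside 1.08% and 14.5%, with a median of 0.19 against 0.00, and 3 were called without the second 8-cell control library. Of those that rose at the 4-cell stage, PLK2, a polo-like kinase, stood at 118 ± 23.8 CPM in edited and 50.1 ± 11.5 CPM in control embryos, APAF1, the scaffold of the apoptosome, at 72.2 ± 1.06 and 36.3 ± 7.52 CPM, and SESN1, a sestrin, at 37.0 ± 1.83 and 14.8 ± 10.1 CPM (SD, n = 2 in each). Of those that fell there, FUCA1, a lysosomal fucosidase, stood at 12.9 ± 0.371 CPM in edited and 62.3 ± 6.44 CPM in control embryos (SD, n = 2 in each). BLOC1S2 fell at both stages, from 214 ± 73.7 to 48.5 ± 19.3 CPM at the 4-cell stage and from 108 ± 8.34 to 18.0 ± 2.68 CPM at the 8-cell stage (SD, n = 2). THBS1, the gene of the matrix protein thrombospondin, also fell at the 8-cell stage, with a log2 ratio of -3.23. The single gene that rose there, PERP, a membrane protein of desmosomes named after its values were seen, stood at 13.8 and 15.0 CPM in edited and at 5.52 and 7.15 CPM in control libraries (log2 ratio 1.08, SE 0.348, limma adjusted p = 0.0459), and it was not called without the second 8-cell control library.

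**Figure D5:**
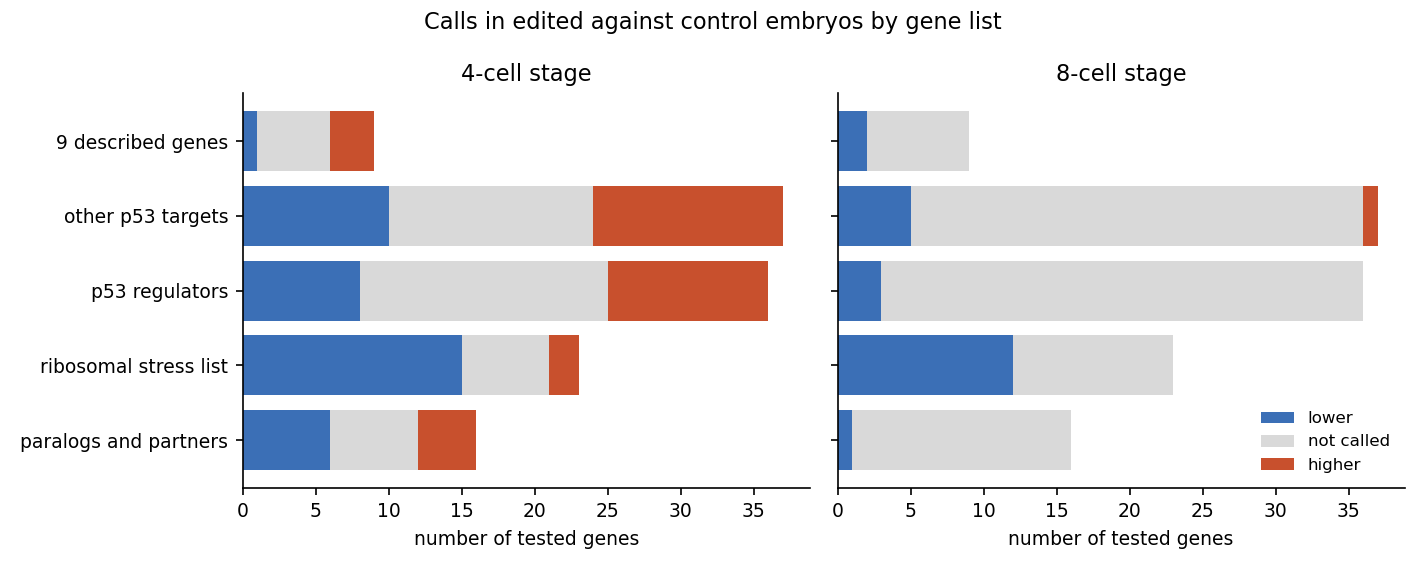
Number of tested genes called lower (blue), not called (grey) and called higher (red) in edited against control embryos at each stage, for the 9 described genes and 4 lists. The lists share some genes, among them PPM1D, NPM1, SESN1 and BTG2, which are counted in each list that holds them. Of the 37 other p53 targets 13 were higher and 10 lower in 4-cell embryos, and of the 23 genes of the ribosomal stress list 15 were lower in 4-cell and 12 in 8-cell embryos.

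Of 37 p53 regulators listed, 36 were in the table and all 36 were tested. Of these, 11 rose and 8 fell in 4-cell embryos (median 0.13), beside 18.9% and 25.8% of all tested genes. In 8-cell embryos none rose and 3 fell (median -0.11), beside 1.08% and 14.5%, and 1 was called without the second 8-cell control library. At that stage 2 had an unadjusted limma p-value under 0.05 towards higher levels, edgeR called 0 higher and DESeq2 1. USP7, which removes ubiquitin from MDM2 and p53, rose at the 4-cell stage, with 341 and 258 CPM in edited against 150 and 187 CPM in control libraries (log2 ratio 0.82, SE 0.222, limma adjusted p = 0.00671). Its 8-cell value was 0.07 (limma adjusted p = 0.876). PPM1D, a phosphatase that is a p53 target and switches p53 off, rose at the 4-cell stage by 0.98 (SE 0.381, limma adjusted p = 0.0472) and had a value of -0.76 at the 8-cell stage (limma adjusted p = 0.220). TRIM24, a ubiquitin ligase for p53, rose at the 4-cell stage from 41.4 ± 15.0 to 151 ± 5.14 CPM and CREBBP, an acetyltransferase, from 20.2 ± 4.89 to 59.7 ± 11.8 CPM (SD, n = 2). KAT8, another acetyltransferase, fell there from 39.3 ± 2.99 to 16.9 ± 1.16 CPM (SD, n = 2). OTUB1, a deubiquitinase, and MAGED2 fell at both stages, OTUB1 with log2 ratios of -2.87 and -1.13 and MAGED2 with -3.15 and -3.45. HUWE1, a ubiquitin ligase, fell at the 8-cell stage, by 1.81 on the log2 scale (SE 0.421, limma adjusted p = 0.00629).

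The list for ribosomal stress held 25 genes, mostly ribosomal proteins reported to bind MDM2 and factors that assemble or deliver them, of which 23 were tested. Among 4-cell embryos 15 fell and 2 rose (median -1.26), beside 25.8% lower and 18.9% higher among all tested genes. In 8-cell embryos 12 fell and none rose (median -0.81), beside 14.5% lower and 1.08% higher. None rose at the 8-cell stage at an unadjusted limma p-value under 0.05 either, and edgeR and DESeq2 called 0 higher. RPL11 stood at 189 and 151 CPM in the 4-cell controls and at 59.8 and 56.2 CPM in the 4-cell edited libraries, and at 89.0 and 117 CPM in the 8-cell controls and 42.0 and 37.1 CPM in the 8-cell edited libraries. It fell at both stages, by 1.53 and 1.35 on the log2 scale (SE 0.240 at each, limma adjusted p = 0.000116 and 0.00079). RPL5, its partner on MDM2, stood at 735 and 792 CPM in the 4-cell controls, 589 and 553 CPM in the 4-cell edited libraries, 722 and 742 CPM in the 8-cell controls and 555 and 476 CPM in the 8-cell edited libraries. All 4 edited libraries of RPL5 lay below all 4 controls. Its log2 ratios were -0.42 (SE 0.199, limma adjusted p = 0.100) and -0.51 (SE 0.199, limma adjusted p = 0.105), and averaged over both stages it fell by 0.46 (SE 0.141, limma adjusted p = 0.0137). The falls with the smallest p-values were those of RPS15, RPL26 and RPL23 at the 4-cell stage, with log2 ratios from -2.52 to -2.05, and those of RPL26, RPS25 and RPS26 at the 8-cell stage, with values from -2.73 to -2.45. NPM1, the nucleolar protein nucleophosmin, rose at the 4-cell stage from 1004 ± 57.0 to 1616 ± 62.7 CPM and RPF2, an assembly factor for RPL5 and RPL11, from 31.5 ± 14.3 to 87.8 ± 22.0 CPM (SD, n = 2). Reads of ribosomal protein genes are uncertain where counting could split them with processed pseudogenes.

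Paralogs and partners of the 9 genes were listed as a group of 17, of which 16 were tested. Of these, 4 rose and 6 fell in 4-cell embryos (median -0.18), beside 18.9% and 25.8% of all tested genes, or 3 and 2 without the first 4-cell control library. In 8-cell embryos none rose and 1 fell (median 0.06), beside 1.08% and 14.5%. Towards higher 8-cell levels 1 had an unadjusted limma p-value under 0.05, and edgeR and DESeq2 called 0 higher. Among the sestrins, SESN3 rose at the 4-cell stage from 13.4 ± 6.81 to 60.1 ± 7.77 CPM (SD, n = 2), SESN1 rose as given above, and SESN2 did not pass. Of the BTG family, BTG4, which directs the clearance of maternal transcripts, rose at the 4-cell stage from 13470 ± 2057 to 33202 ± 6167 CPM (SD, n = 2), and it is also 1 of the oocyte and embryo markers summed above. BTG3 fell at both stages, with 110 and 109 CPM in control against 12.4 and 38.7 CPM in edited libraries at the 4-cell stage and 71.7 and 58.0 against 6.60 and 9.46 CPM at the 8-cell stage. BTG2 fell at the 4-cell stage by 1.81 on the log2 scale (limma adjusted p = 0.00349). Of the other kinase inhibitors of the CDKN1 family, CDKN1B rose at the 4-cell stage by 1.77 and CDKN1C fell by 1.47 on the log2 scale (limma adjusted p = 0.00158 and 0.0104). GADD45B and GADD45G fell at the 4-cell stage, with log2 ratios of -1.43 and -1.31 (limma adjusted p = 0.0107 and 0.0109). CCNG2, the nearest relative of CCNG1, stood between 7.62 and 14.6 CPM in all 8 libraries and did not pass at either stage (limma adjusted p = 0.832 and 0.514). TP53INP2 had at most 0.90 CPM in any library and was not tested.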

How the data were processed

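Transcripts of 8 embryo libraries were analysed. Per the submitters' processing notes, Trim Galore 0.6.7, HISAT2 2.2.1 and featureCounts 2.0.1 were used. The genome build, annotation and strand setting are not given in the sources used here, so no coordinates are printed. RefSeq places a long noncoding RNA gene over MDM4 and over TP53INP1, neither of them in the table. The values the authors deposited are CPM, although the table is named for raw counts. Dividing a library's CPM by the value of 1 read gave whole reads (to 0.05) for 100% of genes with a value above 0, and these recovered reads were used where counts were needed. Of 12 columns, 4 match no sample given here and were not used.

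limma 3.58.1 (R 4.3.3, intensity trend, 1 mean per group, all 8 libraries) was fitted to log2(CPM + 1) for 12129 genes that averaged 1 CPM or more, and p-values were adjusted by the Benjamini-Hochberg method over these genes. The script was tested on simulated data. The contrasts set edited against control libraries within each stage and on average, the stages' effects against each other, and 8-cell against 4-cell in each condition. Alternatives were edgeR 4.0.16 and DESeq2 1.42.0 on the recovered reads, pseudocounts of 0.5 and 5 CPM, no filter or one at 5 CPM, median-of-ratios scaling, only the compared libraries, a replicate block, and each library left out.

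The 9 genes and the lists were chosen with earlier results of these data known. Besides the 9 genes, RPL12, RPL5, RPL11, USP7 and PPM1D, the text names up to 3 called genes per list, direction and stage by smallest p-value with a mean of at least 10 CPM, paralogs of the 9, and by profile the nearest of up to 3 genes per member. Some genes that this rule would name are not reported here.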

Additional observations from a re-analysis of the deposited data

Results flagged for a closer look

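For TP53INP1 the effect of editing differed between the stages. Subtracting the effect in 4-cell from that in 8-cell embryos gave -1.55 on the log2 scale (SE 0.302). limma's test of the difference called it among all genes tested. That value rests in part on the 4-cell levels of TP53INP1, so nothing is read from the call. Its 4-cell difference was what the gene was selected on, so no p-value is given, and the call was lost with edgeR, without the filter on low values and without any 1 of 5 libraries (both 4-cell edited, both 8-cell edited and the first 8-cell control). In control embryos the mean went from 80.2 to 149 CPM between the stages and in edited embryos from 305 to 193 CPM.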

How the results depend on the processing

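Of 306 alternative values for the 9 genes in edited against control embryos by stage, 295 kept direction and call, 1 lost its call (FDXR, given above), 3 gained one (CDKN1A in 4-cell embryos with DESeq2, a pseudocount of 5 CPM or median-of-ratios scaling, adjusted p = 0.0493, 0.0283 and 0.0430) and 7 reversed, none of them called. The cause of these changes was not tested. Changed filters, the replicate block, use of only the compared libraries and leaving out a library of the other stage leave the log2 ratio unchanged. In those settings only the call could change, so the number of kept directions is partly fixed in advance. The count also takes in TP53INP1, FDXR and BTG1 in the comparisons they were selected on. Replicate numbers did not pair the libraries: deviations of same-numbered libraries correlated by 0.11 between 4-cell control and edited, -0.09 between 8-cell control and edited, 0.02 between edited stages and -0.30 between control stages. With the replicate number as a block, genes called among all tested went from 5419 to 5224 in the 4-cell and from 1895 to 1842 in the 8-cell comparison. A crossed block for the control stages, chosen after seeing the data, called 1690 genes in place of 1094 and 3 of the 9.

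Members whose editing effect differed between stages (1 as reported) numbered 0 with edgeR or no filter, 2 with DESeq2 or a filter at 5 CPM, and 0 to 4 with a library left out. Members that differed between control stages (1) numbered 0 with edgeR, no filter or only the compared libraries, 2 with DESeq2, a pseudocount of 5 CPM or median-of-ratios scaling, and 0 to 3 with a library left out. Between edited stages (1) they numbered 0 with no filter, 2 with DESeq2 or only the compared libraries, and 0 to 2 with a library left out. In 8-cell edited against control embryos (2) they numbered 1 to 2 with a library left out. Over all tested genes the count ran over the alternatives from 0 to 1396 for the difference of effects (480), 1 to 2114 between control stages (1094) and 7 to 1286 between edited stages (628).

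Directions that reversed belong to uncalled values. Between control stages, MDM2 was 0.029 with edgeR. Between edited stages, MDM4 was -0.0248 with edgeR, -0.0348 with DESeq2 and -0.0308 with median-of-ratios scaling, and GADD45A was -0.0411, -0.0522 and -0.0277 under the same 3. With a library left out, log2 ratios ranged as follows. In 4-cell edited against control embryos GADD45A ran from -0.14 to 0.68. In 8-cell embryos MDM2 ran from -0.18 to 0.49, SESN2 from -0.051 to 0.15, CCNG1 from -0.080 to 0.41 and GADD45A from -0.16 to 0.55. For the difference of effects MDM2 ran from -0.53 to 0.14, SESN2 from -0.73 to 0.0092 and GADD45A from -0.48 to 0.33. Between control stages MDM2 ran from -0.22 to 0.17 and GADD45A from -0.27 to 0.45. Between edited stages MDM2 ran from -0.55 to 0.12, MDM4 from -0.073 to 0.11, FDXR from -0.29 to 0.60, SESN2 from -0.23 to 0.51 and GADD45A from -0.39 to 0.43. With 2 libraries a group, small effects stay below what the tests could call.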
